A study of Mus musculus with 8 samples.

Results

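Neural progenitor cells (NPCs) that were made to express W20 were compared with NPCs that were made to express EGFP, a fluorescent protein used as the control. The 4 arrays were chosen by their titles, which name the N31 line, the expressed protein and no reprogramming time: 2 arrays of EGFP-expressing NPCs and 2 of W20-expressing NPCs, out of 8 arrays in all. The other 4 arrays hold the same pair of cell populations 72 h after reprogramming was started. N31 is 1 line of neural progenitors derived from mouse embryonic stem cells, so every value below comes from a single line and no tissue is represented. Both NPC groups grew on gelatin in a medium with 10 ng per ml of epidermal growth factor (EGF) and 10 ng per ml of basic fibroblast growth factor (bFGF). For the 72 h arrays the labels give 10 ng per ml of bFGF and no EGF concentration. The title of the series concerns bacterial proteins and the speed of reprogramming, and the stated purpose is to find which genes change when W20 is forced on. No probe on the array is named for EGFP or W20, so the level of the expressed protein's own RNA was not measured.

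Neural progenitors kept in EGF and FGF divide through signalling from both receptors to the kinases ERK1 and ERK2. That signal switches on immediate early transcription factors within minutes, and it also switches on its own inhibitors, the Sprouty proteins and the dual-specificity phosphatases. Progenitors secrete a matrix of collagens, laminins and proteoglycans and carry guidance receptors such as the Eph family that sort cells by position. In fibroblasts, the early phase of reprogramming to pluripotency is known for faster division and for a loss of mesenchymal and a gain of epithelial genes. These statements are background and not results of these arrays.

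Each array measured one labelled RNA sample, and values are given as a relative signal, where 1 is the 75th percentile of all probes on that array. A relative signal serves to compare arrays at 1 probe and not to compare genes. A difference is the mean log2 relative signal with W20 minus that with EGFP, with the standard error of the fit (2 arrays against 2), and a gene was called higher or lower where limma's adjusted p was under 0.05. The 75th percentile of the signal was 851 to 882 on the 4 arrays, and 59.5% to 61.9% of probes were well above background. Arrays of the same group correlated at 0.999 over 12656 genes, and arrays of different groups at 0.988 to 0.991. All 4 arrays lay on 1 slide, with EGFP at positions 1 and 2 and W20 at positions 3 and 4, so position and group cannot be told apart. Whether a group's 2 arrays are of separate cultures is not given in the labels. The p-values therefore measure array-to-array spread alone, and that spread may be technical.

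With W20, 4333 of 13146 tested genes were called higher (33.0%) and 3202 were called lower (24.4%). Most of these differences were small, with a median size of 0.31, and the median difference of all genes was 0.04. By at least 1.5-fold, 478 genes were called higher (3.64%) and 903 were called lower (6.87%). By at least 2-fold, 136 genes were called higher and 377 lower. The large differences therefore lay mostly on the lower side, while the more numerous small ones lay mostly on the higher side. Because 57.3% of all genes were called, a call by itself says little about a gene list, and the counts below are set against these 4 shares. A gene that was well above background in 1 group only entered the test through the group where it was high. This holds for 126 of the 903 genes at least 1.5-fold lower and for 39 of the 478 higher, and such a gene is given as a bound ("at least"), the bright group's mean over, on each array of the dim group, the lowest signal well above background or the probe's own signal if that is higher. Where no member of a list was called in a direction (17 cases over the 104 lists), limma gave no member an unadjusted p under 0.05 in that direction in 15 cases and 1 member in the others.

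**Figure D1:**
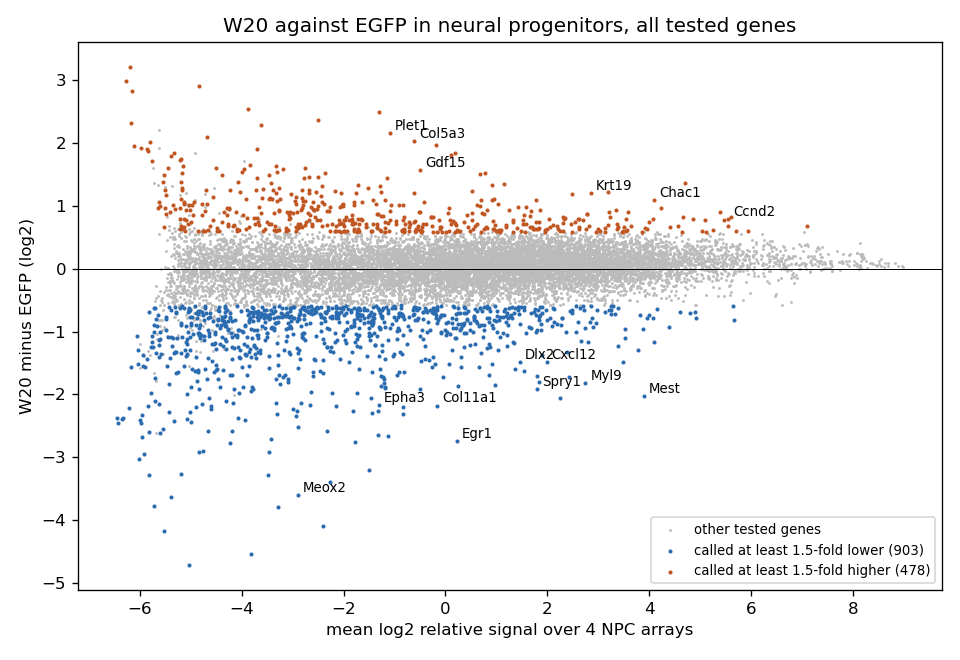
Difference between W20 and EGFP NPCs (log2, vertical axis) against the mean log2 relative signal over the 4 arrays (horizontal axis), 1 point per tested gene; coloured points are the 478 genes called at least 1.5-fold higher and the 903 called at least 1.5-fold lower. The lower side reaches further from 0 than the higher side, and labelled points are genes described in the text.

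The progenitor identity of the arrays was checked on markers. Of 14 NPC markers, 11 passed the filter, and Nes, Vim, Sox1, Sox2, Pax6 and Msi1 were among them, whereas Fabp7, Olig2 and Hes5 were not well above background in either group. Of 8 pluripotency markers, 6 were on the array under their symbols, and Pou5f1 did not pass. The 3 that passed were Zfp42 (-0.54), Esrrb (-0.60) and Dppa5a (-0.28), and all 3 were called lower. The call on Esrrb was lost when any 1 of the 4 arrays was left out (-0.56 to -0.64), under quantile scaling, without a filter on dim probes and with the replicate block (adjusted p = 0.0504). None of 6 endothelial markers passed, and of 7 immune markers on the array Ptprc, Aif1, Csf1r and Itgam did not pass. All 10 mesenchymal markers, which include Col1a1, Col3a1 and Pdgfrb, were measured above background in the EGFP arrays. The relative signals of those 10 probes summed to 169 and 192 with EGFP and to 115 and 113 with W20. All 10 were called lower, with a median difference of -1.18. Where members not well above background with W20 were set at their bound, that median was -0.93. Astrocyte markers moved the same way: 5 of 7 were tested, 3 were called lower and none higher, and their sum was 13.6 and 15 with EGFP and 6.5 and 6.21 with W20. Of the 11 NPC markers 4 were called lower, Sox2 (-0.71), Slc1a3 (-1.21), Egfr (-1.51) and Prom1 (at least 1.73-fold), and 1 higher, Nes (0.19), with a median of -0.15. The call on Nes was lost under quantile (0.11) and spike-in scaling (0.17), without EGFP array 1 (0.15) and without W20 array 2 (0.17). The sum over the 11 NPC markers was 126 and 137 with EGFP and 139 and 153 with W20, most of it from Vim, which read 113 and 123 with EGFP and 127 and 140 with W20 and was not called (adjusted p = 0.115). In bulk RNA from whole cultures, fewer cells of a type and less RNA per cell cannot be told apart, and the part of such cells in the results below was not tested.

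Large differences fell on genes of several kinds. The genes given here are among the 12 largest called differences of their direction, though Mgp (-4.10) and Postn (-3.80), both of the matrix, fell by more. Lower values still were found among secreted BMP and TGF-beta antagonists (lowest -4.72) and nuclear receptors (lowest -4.54), both given without a bound. Meox2, a homeobox factor of somite mesoderm, had a relative signal of 0.433 and 0.503 with EGFP and 0.0391 and 0.0377 with W20, and it fell by 3.60 ± 0.25 (12.2-fold). Asic2, an acid-sensing ion channel of neurons, read 0.0856 and 0.0841 with EGFP and 0.0119 and 0.00645 with W20, not well above background with W20, and was at least 3.65-fold lower there. Tslp, a cytokine of epithelial cells, read 0.0977 and 0.0722 with EGFP and 0.00533 and 0.00862 with W20 and was likewise at least 3.62-fold lower. For Meox2 both W20 arrays lay far below both EGFP arrays. Asic2 and Tslp passed the filter only through the EGFP group, so the gap between their arrays is no support for a difference. On the higher side, Plet1, a surface protein of placental and epithelial progenitors, read 0.233 and 0.213 with EGFP and 0.959 and 1.03 with W20 and rose by 2.16 ± 0.0689 (4.47-fold). Inpp4b, a phosphatase that removes phosphate from phosphoinositides, read 0.0371 and 0.0368 with EGFP and 0.157 and 0.207 with W20 and rose by 2.29 ± 0.314 (4.88-fold). For the 3 of these genes that were well above background in both groups, limma's adjusted p ran from 3.37e-05 to 0.00154. None of the 7535 called genes overlapped between the groups, so non-overlap adds nothing to a call here. Ranges of adjusted p, here and below, leave out genes given as a bound. Sp8, a zinc finger factor of the forebrain and limb, was well above background on both W20 arrays and on 1 EGFP array. It read 0.0219 and 0.016 with EGFP and 0.0779 and 0.0825 with W20, and no fold is given because it passed the filter only through the W20 group.

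Collagen genes were mostly lower. Of 15 fibrillar and associated collagens tested, 13 were called lower, 8 of them by at least 1.5-fold, against 2 called higher, and the median difference was -0.78 against 0.04 for all genes. Col11a1, a minor fibrillar chain that sets fibril width, read 1.68 and 2.16 with EGFP and 0.42 and 0.42 with W20 and fell by 2.18 ± 0.111 (4.53-fold). Col8a2, a short-chain collagen of basement membranes, read 0.67 and 0.866 with EGFP and 0.122 and 0.103 with W20 and fell by 2.76 ± 0.133 (6.78-fold). For both genes each W20 array stayed below each EGFP array, as for every gene called lower. Col6a3, a chain of the beaded microfibrils, was not well above background with W20 and was at least 3.78-fold lower there. Col3a1, a main fibrillar chain of soft tissue, read 17.8 and 20.2 with EGFP and 6.81 and 6.68 with W20 and fell by 1.49 ± 0.0626. Col5a3 went the other way. This minor chain read 0.325 and 0.321 with EGFP and 1.33 and 1.31 with W20 and rose by 2.03 ± 0.0392 (4.08-fold), and it was the only member of the list that rose by at least 1.5-fold. Adjusted p for the collagens named here was 3.37e-05 to 6.75e-05 (limma). Taken by symbol, the 29 tested genes whose names start with Col had 22 called lower and 3 called higher.

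Other classes of matrix protein moved less evenly. Of 8 small leucine-rich proteoglycans tested, which bind collagen fibrils and growth factors, 7 were called lower and none higher, with a median difference of -0.79. Where members not well above background with W20 were set at their bound, that median was -0.65. Dcn (decorin) read 1.31 and 1.41 with EGFP and 0.763 and 0.722 with W20 and fell by 0.87 ± 0.0794. Bgn (biglycan) read 6.97 and 7.37 with EGFP and 4.44 and 4.39 with W20 and fell by 0.70 ± 0.0386. Among 29 matricellular proteins and glycoproteins, 18 were called lower, 14 of them by at least 1.5-fold, and 2 higher. Mfap4, a protein of elastic microfibrils, read 0.434 and 0.543 with EGFP and 0.0849 and 0.078 with W20 and fell by 2.58 ± 0.108 (5.97-fold). Igfbp7, a secreted binding protein of the vessel wall, read 10.4 and 10.4 with EGFP and 4.63 and 4.6 with W20 and fell by 1.17 ± 0.0512. Tnc (tenascin C), a glycoprotein of the neural stem cell niche, read 0.529 and 0.614 with EGFP and 0.262 and 0.282 with W20 and fell by 1.07 ± 0.125. Fibronectin (Fn1) read 5.57 and 6.28 with EGFP and 5.58 and 5.61 with W20, a difference of -0.08 ± 0.113 that was not called (adjusted p = 0.574). In the basement membrane list, 9 of 15 tested members were called lower and 1 higher, but only 2 passed 1.5-fold. One of them was Lama4, a laminin chain, which read 0.905 and 1.12 with EGFP and 0.165 and 0.156 with W20 and fell by 2.65 ± 0.123 (6.27-fold), and the other was Nid2 (nidogen 2), which read 1.35 and 1.52 with EGFP and 0.477 and 0.485 with W20 and fell by 1.57 ± 0.0786. Adjusted p for the called genes of this paragraph was 4.66e-05 to 0.00084 (limma).

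Enzymes that cut the matrix fell along with it. Of 31 proteases and inhibitors tested, 19 were called lower, 13 by at least 1.5-fold, and 5 were called higher, with a median of -0.47. The Adamts metalloproteases, which cut proteoglycans and procollagens, had 8 of 12 tested members called lower and 1 higher, and 6 of the decreases passed 1.5-fold (6.87% of all genes did). Adamts5 read 0.298 and 0.337 with EGFP and 0.0774 and 0.0857 with W20 and fell by 1.96 ± 0.0876 (3.89-fold). Adamts1 read 4.69 and 5.51 with EGFP and 1.65 and 1.65 with W20 and fell by 1.62 ± 0.0733 (3.08-fold). Mmp23, a membrane-linked metalloprotease, read 1.72 and 1.83 with EGFP and 0.633 and 0.614 with W20 and fell by 1.51 ± 0.0402 (2.84-fold). Each of these genes had both W20 arrays below both EGFP arrays, as had every gene called lower. Adam8, a surface metalloprotease of immune and cancer cells, went up. It read 2.5 and 2.21 with EGFP and 5 and 5.05 with W20 and rose by 1.10 ± 0.0621 (2.14-fold). Plaur, the receptor that holds urokinase at the cell surface, read 3.81 and 3.65 with EGFP and 5.6 and 6.02 with W20 and rose by 0.64 ± 0.0693. The enzymes that process and crosslink collagen were mixed, with 8 of 17 called lower and 3 higher and a median of -0.12, and 5 were lower under median and spike-in scaling. In that list Loxl1, a crosslinking oxidase, fell by 1.33 ± 0.0384, while Pcolce2, an enhancer of procollagen cleavage, read 0.628 and 0.568 with EGFP and 2.09 and 2.22 with W20 and rose by 1.85 ± 0.0591 (3.61-fold). Adjusted p ran from 3.37e-05 to 0.000641 (limma).

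**Figure D2:**
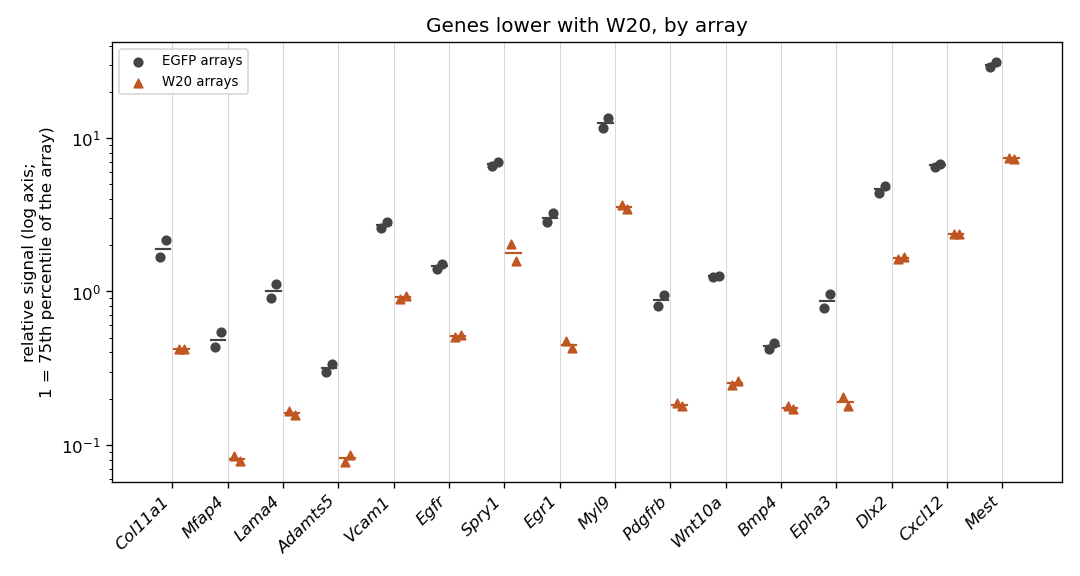
Relative signal (log axis, 1 is the 75th percentile of the array) of 16 genes that fell with W20, by array: 2 EGFP arrays (circles) and 2 W20 arrays (triangles), with a short line at each group's mean of log values. In each gene both W20 points lie below both EGFP points, as in every gene called lower. The 2 points of a group lie close together compared with the gap between groups.

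Adhesion genes split by type. Among 15 immunoglobulin family adhesion genes, 9 were called lower and 2 higher. Vcam1, the vascular adhesion molecule that also anchors neural stem cells, read 2.58 and 2.83 with EGFP and 0.897 and 0.939 with W20 and fell by 1.56 ± 0.0572 (2.94-fold). Mcam, an adhesion molecule of pericytes and endothelium, read 1.96 and 2.27 with EGFP and 0.724 and 0.71 with W20 and fell by 1.56 ± 0.07 (2.94-fold). Icam1, a ligand of leukocyte integrins, was not well above background with W20 and was at least 2.08-fold lower. The 14 tested integrin subunits had 6 called lower and 5 higher (4 and 5 under spike-in scaling), and the collagen-binding subunit Itga11 was at least 2.18-fold lower, to a level not well above background. Epithelial junction genes went up instead: 12 of 27 tested members were called higher, 7 of them by at least 1.5-fold, and 3 lower. Cldn6, a tight junction protein of early epithelia, read 1.03 and 0.876 with EGFP and 2.55 and 2.86 with W20 and rose by 1.51 ± 0.107 (2.85-fold). Dsp (desmoplakin), which ties desmosomes to keratin, read 0.197 and 0.192 with EGFP and 0.437 and 0.459 with W20 and rose by 1.21 ± 0.0567 (2.31-fold). Krt19, a keratin of simple epithelia, read 5.05 and 4.55 with EGFP and 10.7 and 11.4 with W20 and rose by 1.20 ± 0.0582 (2.3-fold). Krt8, another simple-epithelial keratin, read 37.5 and 35.5 with EGFP and 63.9 and 66 with W20 and rose by 0.83 ± 0.0395. The W20 arrays were the higher pair for all 4 of these genes, as for every gene called higher. Epcam, the defining member of the list, read 0.149 and 0.164 with EGFP and 0.225 and 0.132 with W20 and was not called (adjusted p = 0.664). By limma, the called genes had adjusted p of 3.44e-05 to 0.000161.

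The receptor for the EGF in the medium fell, as did some of the feedback genes of ERK signalling. Egfr read 1.41 and 1.52 with EGFP and 0.507 and 0.522 with W20 and fell by 1.51 ± 0.0526 (2.85-fold). Of 13 FGF ligands and receptors, 7 were called higher and 4 lower, but with normexp background correction 1 was higher and 3 lower, so that list has no settled direction. Of 19 feedback inhibitors and targets of ERK, 8 were called lower, 7 by at least 1.5-fold, and 4 higher. The median of that list was -0.06, so the decrease belonged to some members only. Spry1, a Sprouty protein that blocks receptor signalling to Ras, read 6.55 and 6.99 with EGFP and 2.03 and 1.58 with W20 and fell by 1.92 ± 0.111 (3.78-fold). Il17rd (Sef), a membrane inhibitor of FGF signalling, read 6.29 and 7.04 with EGFP and 1.94 and 1.87 with W20 and fell by 1.80 ± 0.0634 (3.49-fold), with its 3 probes between -1.98 and -0.72. Dusp6, the phosphatase that inactivates ERK in the cytoplasm, read 15.5 and 16.4 with EGFP and 8.26 and 8.18 with W20 and fell by 0.96 ± 0.0389 (1.94-fold). The highest W20 array was below the lowest EGFP array for all 3, as for every gene called lower. Spry4 fell by 1.39 ± 0.149 and Dusp2, a nuclear ERK phosphatase, fell by 1.29 ± 0.0651. The dual-specificity phosphatases did not fall as a family. Of 19 tested genes whose names start with Dusp, 9 were called higher and 5 lower, with a median of 0.13. By at least 1.5-fold, 2 were higher and 2 lower. Etv5, an Ets factor that FGF induces, read 0.625 and 0.61 with EGFP and 0.634 and 0.754 with W20 and was not called (adjusted p = 0.152), although without W20 array 1 it was called higher by 0.29. These calls had an adjusted p of 3.37e-05 to 0.000612 (limma).

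Immediate early genes moved in both directions. Of 24 tested, 12 were called lower and 8 higher, with 4 and 5 past 1.5-fold. Egr1, the zinc finger factor that growth factors induce through serum response factor, read 2.84 and 3.23 with EGFP and 0.474 and 0.428 with W20 and fell by 2.75 ± 0.0856 (6.73-fold). Egr2, its relative in hindbrain and Schwann cells, read 0.441 and 0.519 with EGFP and 0.104 and 0.106 with W20 and fell by 2.18 ± 0.0761 (4.54-fold). Fos, a partner in the AP-1 factor, read 0.0986 and 0.108 with EGFP and 0.0528 and 0.0525 with W20 and fell by 0.97 ± 0.0466. No W20 array reached an EGFP array for these 3 factors, as for every gene called lower. Fosl1, another AP-1 subunit, went up, reading 2.21 and 2.01 with EGFP and 4.09 and 4.28 with W20, and it rose by 0.99 ± 0.0555. Btg2, an antiproliferative gene that p53 also induces, read 0.615 and 0.661 with EGFP and 1.1 and 1.15 with W20 and rose by 0.82 ± 0.0462. Adjusted p was 3.37e-05 to 8.80e-05 (limma).

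Targets of serum response factor in the cytoskeleton were mixed in number and mostly lower in size. Srf itself read 3.17 and 3.3 with EGFP and 2 and 1.97 with W20 and fell by 0.71 ± 0.0446. Of 37 actin and SRF target genes, 12 were called lower, 7 by at least 1.5-fold, 4 were called higher, and 21 were not called. Fhl1, a LIM protein of muscle, read 1.23 and 1.19 with EGFP and 0.258 and 0.269 with W20 and fell by 2.20 ± 0.0591 (4.59-fold). Myl9, the regulatory light chain of smooth muscle myosin, read 11.7 and 13.6 with EGFP and 3.68 and 3.46 with W20 and fell by 1.82 ± 0.0792 (3.54-fold). Lmod1, an actin nucleator of smooth muscle, read 0.255 and 0.293 with EGFP and 0.103 and 0.0985 with W20 and fell by 1.44 ± 0.076. For smooth muscle actin (Acta2) the probes matter: its brighter probe read 21.5 and 22.1 with EGFP and 22.2 and 22.8 with W20 and was not called (adjusted p = 0.336). The 2 Acta2 probes disagreed, with differences of 0.04 and -2.58, so its direction is unsettled. limma gave adjusted p of 3.37e-05 to 0.00012 for the called genes.

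Serum response factor binds the CArG box. The 250 bases before the start of 2 genes that fell are shown because each holds 1 such box, in capitals; the sequences come from RefSeq (GRCm38.p6). The Egr2 sequence lies at chr10:67537316-67537565 on the plus strand, before 1 of 5 annotated starts, with the box beginning 72 bases before the start. The Myl9 sequence lies at chr2:156775214-156775463 on the plus strand, with the box beginning 161 bases before the start.
Egr2: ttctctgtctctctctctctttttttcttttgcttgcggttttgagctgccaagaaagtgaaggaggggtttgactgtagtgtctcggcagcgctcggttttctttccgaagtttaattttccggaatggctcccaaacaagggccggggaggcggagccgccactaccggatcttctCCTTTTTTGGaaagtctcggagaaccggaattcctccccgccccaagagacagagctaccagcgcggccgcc
Myl9: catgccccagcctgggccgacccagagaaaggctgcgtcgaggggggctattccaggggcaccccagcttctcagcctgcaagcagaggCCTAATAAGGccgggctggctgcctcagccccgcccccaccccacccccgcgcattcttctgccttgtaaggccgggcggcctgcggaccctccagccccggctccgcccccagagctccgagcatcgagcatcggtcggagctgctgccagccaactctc
Both strands were searched over 300 bases (250 before and 50 after the start), and the box was found in 1.67% of 10504 tested genes with a window and in 1.81% of 27025 genes in all. It was found in 3 of 20 immediate early genes and in 10 of 32 actin and SRF targets that had a window. The 3 were Egr2, Zfp36 and Srf, all called lower. Of the 10, Acta1, Actc1, Cnn2, Myl9, Fhl1 and Srf were called lower, and Actg1, Myl6, Vcl and Fhl2 were not called. With or without a box, 12 of 24 immediate early genes and 12 of 37 actin and SRF targets were called lower. Over all genes 24.4% were called lower. A match describes the letters in a window and does not show binding.

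Growth factors and receptors outside the EGF and FGF families were mostly lower. Of 28 tested, 18 were called lower, 8 by at least 1.5-fold, and 6 higher, with a median of -0.39. Pdgfrb, the PDGF receptor of pericytes and mesenchyme, read 0.802 and 0.952 with EGFP and 0.187 and 0.178 with W20 and fell by 2.26 ± 0.0822 (4.78-fold). Pdgfra, the PDGF receptor of oligodendrocyte precursors and mesenchyme, fell by 1.12 ± 0.0473, and the ligand Pdgfb fell by 1.38 ± 0.0765. Ptn (pleiotrophin), a heparin-binding factor that radial glia secrete, read 9.1 and 10.6 with EGFP and 3.11 and 2.87 with W20 and fell by 1.72 ± 0.0866 (3.28-fold). Ligand and receptors of the PDGF system were thus lower together in these 4 arrays. Vegfa, the vascular growth factor, went the other way with 5.7 and 5.49 with EGFP and 9.19 and 8.85 with W20, and it rose by 0.69 ± 0.0495. The highest difference in the list was 1.06, and 3 of its members were called at least 1.5-fold higher. In the insulin-like growth factor axis, 10 of 16 members were called lower and 4 higher. Igf2, a fetal growth factor, read 4.9 and 5.38 with EGFP and 2.71 and 2.53 with W20 and fell by 0.97 ± 0.0597, and its signalling receptor Igf1r fell by 0.90 ± 0.0732. Adjusted p was 3.44e-05 to 0.00025 (limma).

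Wnt ligands and their secreted antagonists fell side by side. Of 10 ligands tested, 6 were called lower, each by at least 1.5-fold, and 2 higher, with a median of -0.68. Wnt10a read 1.24 and 1.27 with EGFP and 0.246 and 0.261 with W20 and fell by 2.31 ± 0.123 (4.94-fold). Wnt6 read 0.108 and 0.133 with EGFP and 0.0292 and 0.0319 with W20 and fell by 1.97 ± 0.118 (3.92-fold). Wnt5a, the prototype of signalling without beta-catenin, fell by 1.06 ± 0.0617. In contrast Wnt9a read 0.116 and 0.115 with EGFP and 0.325 and 0.336 with W20 and rose by 1.52 ± 0.09 (2.87-fold), so the ligands did not move as a block. Of 11 antagonists, 6 were called lower, 5 by at least 1.5-fold, and 1 higher. Dkk2, which binds the Lrp co-receptors, read 0.364 and 0.423 with EGFP and 0.145 and 0.147 with W20 and fell by 1.43 ± 0.0699 (2.69-fold), and Dkk3 fell by 1.24 ± 0.0626. Frzb, which binds Wnt proteins, was not well above background with W20 and was at least 1.6-fold lower. The receptors changed little, with 1 of 14 at least 1.5-fold lower and 1 at least 1.5-fold higher. The one that rose was Lgr6, a receptor for R-spondins, which read 0.269 and 0.247 with EGFP and 0.622 and 0.667 with W20 and rose by 1.32 ± 0.0562 (2.5-fold). Lef1, the nuclear partner of beta-catenin, read 0.153 and 0.153 with EGFP and 0.145 and 0.133 with W20 and was not called (adjusted p = 0.0577), although without W20 array 1 its difference of -0.21 was called. Adjusted p for the called genes was 4.68e-05 to 0.000102 (limma).

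Target genes of BMP and TGF-beta signalling were mostly lower, while the receptors changed little. Of 17 target genes tested, 11 were called lower, 9 by at least 1.5-fold, and 2 higher, with a median of -0.62. The Id proteins, which block bHLH factors, all fell: Id1 fell by 0.38 ± 0.0519, Id2 fell by 0.64 ± 0.079, Id3 fell by 0.96 ± 0.0424 and Id4 fell by 0.31 ± 0.0291. Atoh8, a bHLH factor and BMP target, read 0.536 and 0.565 with EGFP and 0.329 and 0.323 with W20 and fell by 0.75 ± 0.0615. Of 13 receptors and Smads none changed by 1.5-fold, and 4 were called lower and 2 higher (2 and 2 under median scaling). Among 13 ligands, Tgfb2 read 0.395 and 0.454 with EGFP and 0.113 and 0.104 with W20 and fell by 1.97 ± 0.0805 (3.91-fold). Bmp4 read 0.422 and 0.461 with EGFP and 0.178 and 0.172 with W20 and fell by 1.33 ± 0.0521 (2.52-fold). Gdf15, a distant member that stress induces, moved the other way with 0.429 and 0.395 with EGFP and 1.23 and 1.21 with W20, and it rose by 1.57 ± 0.0747 (2.97-fold). Adjusted p was 4.06e-05 to 0.00153 (limma).

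In the smaller signalling lists single members stood out. Notch3, the Notch receptor of pericytes and neural stem cells, read 0.717 and 0.868 with EGFP and 0.239 and 0.231 with W20 and fell by 1.75 ± 0.113 (3.36-fold), while Notch1 read 0.462 and 0.459 with EGFP and 0.478 and 0.46 with W20 and was not called (adjusted p = 0.774). Mfng, a sugar transferase that tunes Notch receptors, read 0.168 and 0.151 with EGFP and 0.365 and 0.37 with W20 and rose by 1.21 ± 0.0686 (2.31-fold). Of 9 Notch receptors and ligands, 3 were called lower and 0 higher. In the Hedgehog list of 10 tested genes, Boc, a co-receptor for Hedgehog ligands, read 0.814 and 0.896 with EGFP and 0.234 and 0.224 with W20 and fell by 1.90 ± 0.0667 (3.73-fold), and Gas1, another co-receptor, fell by 0.84 ± 0.048. Hhip, which binds and blocks Hedgehog ligands, fell by 0.81 ± 0.175. By limma, the called genes had adjusted p of 3.37e-05 to 0.00927.

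Ephrins and their receptors had the lowest median difference of the 4 guidance lists. Of 17 tested members, 12 were called lower, 10 by at least 1.5-fold, and 2 higher, and the median was -0.90. Epha3 read 0.775 and 0.956 with EGFP and 0.204 and 0.179 with W20 and fell by 2.17 ± 0.112 (4.51-fold). Epha7 read 0.849 and 1.03 with EGFP and 0.289 and 0.288 with W20 and fell by 1.69 ± 0.0988 (3.24-fold). Epha5 read 0.103 and 0.115 with EGFP and 0.0312 and 0.0264 with W20 and fell by 1.92 ± 0.133 (3.79-fold). These Eph receptors bind ephrins on neighbouring cells. Epha4 was not well above background with W20 and was at least 3.53-fold lower. Efnb3, a ligand of the midline, read 0.856 and 0.915 with EGFP and 0.349 and 0.346 with W20 and fell by 1.35 ± 0.0622 (2.55-fold). Of 13 slits, netrins and receptors, 11 were called lower, 7 by at least 1.5-fold, and 1 higher. Unc5c, a repulsive netrin receptor, read 0.248 and 0.301 with EGFP and 0.059 and 0.0578 with W20 and fell by 2.23 ± 0.115 (4.68-fold). Flrt2, a ligand of Unc5 receptors, read 2.45 and 2.73 with EGFP and 1.03 and 1.02 with W20 and fell by 1.34 ± 0.058 (2.53-fold). The netrin Ntn1 was well above background on both EGFP arrays and 1 W20 array, with 0.114 and 0.119 with EGFP and 0.0322 and 0.0221 with W20, and no fold is given because it passed the filter only through the EGFP group. Semaphorins moved less: 11 of 19 were called lower and 2 higher, with 4 past 1.5-fold. Sema3a, a secreted repellent, read 0.511 and 0.557 with EGFP and 0.241 and 0.246 with W20 and fell by 1.13 ± 0.0496, and its receptor Nrp1 read 0.43 and 0.457 with EGFP and 0.216 and 0.212 with W20 and fell by 1.05 ± 0.0603. Adjusted p was 4.85e-05 to 0.000149 (limma).

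More patterning homeobox factors were called lower than higher, while the Hox genes had no settled direction. Of 25 genes tested in the list of regional and patterning homeobox factors (of 48 listed), 14 were called lower, 8 by at least 1.5-fold, and 1 higher. The 1 called higher was Sp8, the zinc finger factor that passed the filter only through the W20 group. Dlx1, a factor of interneuron progenitors in the ventral forebrain, read 0.764 and 0.94 with EGFP and 0.232 and 0.229 with W20 and fell by 1.88 ± 0.0956 (3.68-fold). Dlx2, its neighbour and partner, read 4.4 and 4.87 with EGFP and 1.63 and 1.67 with W20 and fell by 1.49 ± 0.0689 (2.81-fold). Meis2, a co-factor of the same region, read 9.12 and 9.77 with EGFP and 4.32 and 4.16 with W20 and fell by 1.15 ± 0.0485 (2.23-fold). Pax6, a factor of dorsal progenitors, read 0.384 and 0.367 with EGFP and 0.338 and 0.353 with W20 and was not called (adjusted p = 0.0617), and the differences of its 3 probes ran from -0.12 to 0.94. In the Hox clusters 19 of 39 genes passed the filter, 7 were called higher and 3 lower, against 2 and 3 with normexp, and Hoxb2 read 0.22 and 0.159 with EGFP and 0.0669 and 0.0503 with W20 and fell by 1.69 ± 0.231. These calls had an adjusted p of 4.66e-05 to 0.00153 (limma).

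More genes of radial glia and synapses were called lower than higher. Of 25 radial glial and astroglial genes, 15 were called lower and 4 higher. One that rose was Acsbg1, a fatty acid activating enzyme of the brain, with 1.06 and 0.972 with EGFP and 2.83 and 3.05 with W20, and it rose by 1.53 ± 0.0618 (2.89-fold). Prom1, the surface protein CD133, was at least 1.73-fold lower, to a level not well above background. Of 34 glutamate and GABA receptor genes listed, 14 passed the filter, 8 were called lower and 1 higher, with a median of -0.53. Gria2, an AMPA receptor subunit, was not well above background with W20 and was at least 1.55-fold lower. Cacna1g, a low-threshold calcium channel, read 0.216 and 0.26 with EGFP and 0.0368 and 0.0357 with W20 and fell by 2.71 ± 0.093 (6.55-fold). Of 22 tested neuronal and synaptic genes (of 46), 12 were called lower and 1 higher. Nefl, the light neurofilament chain listed with the intermediate filaments, read 0.431 and 0.429 with EGFP and 0.93 and 1.04 with W20 and rose by 1.20 ± 0.0726 (2.29-fold). Adjusted p was 3.37e-05 to 0.000106 (limma).

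**Figure D3:**
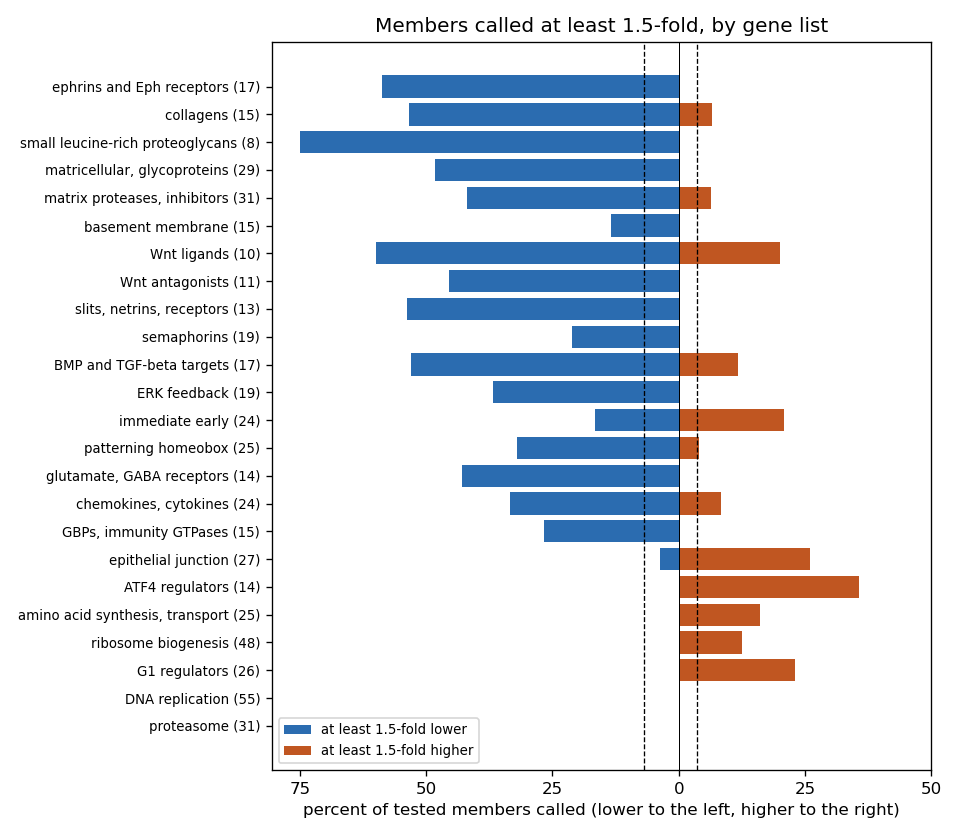
Share of tested members called at least 1.5-fold lower (bars to the left) and at least 1.5-fold higher (bars to the right) in 24 gene lists, in percent of the members tested, with the number tested after each name. Dashed lines mark the shares over all 13146 genes, 6.87% lower and 3.64% higher; small leucine-rich proteoglycans, Wnt ligands and ephrins reach furthest to the left, and ATF4 regulators and epithelial junction genes reach furthest to the right.

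Interferon and chemokine genes were also lower. Of 15 guanylate-binding proteins and immunity-related GTPases, 11 were called lower, 4 by at least 1.5-fold, and 2 higher, with a median of -0.40. Several of these genes have near-identical copies, so their probes may take up signal from a relative. Tgtp1, a GTPase that interferon gamma induces, read 0.488 and 0.509 with EGFP and 0.279 and 0.26 with W20 and fell by 0.89 ± 0.0609 at its brighter probe, while its other probe differed by 0.02. Gbp2 read 10.5 and 10.6 with EGFP and 7.2 and 7.02 with W20 and fell by 0.57 ± 0.0303. Of 33 other interferon-stimulated effectors, 17 were called lower, 4 by at least 1.5-fold, and 3 higher, and 10 were lower under median and spike-in scaling. Ifi27l2a read 0.6 and 0.702 with EGFP and 0.203 and 0.209 with W20 and fell by 1.65 ± 0.106 (3.14-fold). Ifi44 read 0.811 and 0.841 with EGFP and 0.456 and 0.424 with W20 and fell by 0.91 ± 0.0467. Rsad2 (viperin), an antiviral enzyme, was an exception with 0.0772 and 0.0739 with EGFP and 0.151 and 0.138 with W20, and it rose by 0.94 ± 0.112. In antigen processing 11 of 19 tested genes were called lower. Tap2, a peptide transporter subunit, read 0.307 and 0.307 with EGFP and 0.131 and 0.126 with W20 and fell by 1.25 ± 0.0912 (2.39-fold), and B2m, the light chain of class I molecules, read 29.2 and 30 with EGFP and 30.1 and 30.4 with W20 and was not called (adjusted p = 0.437). limma gave adjusted p of 6.83e-05 to 0.000911 for the called genes.

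Interferon-regulated promoters carry the element GAAA, any 2 bases, GAAA, which was searched on both strands. The 250 bases before the start are shown for a gene that fell and for one that rose, with the match in capitals (RefSeq, GRCm38.p6). The Tgtp1 sequence lies at chr11:48992247-48992496 and the Rsad2 sequence at chr12:26456453-26456702, both printed from the minus strand, with matches beginning 77 and 120 bases before the start.
Tgtp1: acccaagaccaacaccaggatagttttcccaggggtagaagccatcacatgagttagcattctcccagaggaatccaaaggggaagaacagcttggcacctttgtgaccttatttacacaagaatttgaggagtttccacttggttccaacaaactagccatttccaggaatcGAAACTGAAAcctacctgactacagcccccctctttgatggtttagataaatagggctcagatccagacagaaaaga
Rsad2: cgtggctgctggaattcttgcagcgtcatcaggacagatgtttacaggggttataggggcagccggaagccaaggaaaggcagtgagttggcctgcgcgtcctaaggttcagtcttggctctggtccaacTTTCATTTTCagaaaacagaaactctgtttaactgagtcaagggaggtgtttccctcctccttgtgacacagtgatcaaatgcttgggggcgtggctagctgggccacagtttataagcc
The element was found in the 300-base windows of 3.49% of tested genes and of 3.99% of all 27025 genes. It was found in 8 of 9 guanylate-binding proteins and immunity-related GTPases with a window. All 8 were called lower, as were 11 of the 15 tested members and 24.4% of all genes. The element was found in 11 of 26 interferon-stimulated effectors, among them Rsad2. Of these 11 genes 6 were called lower, Rsad2 alone was called higher, and 4 were not called. Of the 33 tested effectors 17 were called lower.

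Chemokines and complement followed the same side. Of 24 chemokine and cytokine genes tested, 15 were called lower, 8 by at least 1.5-fold, and 6 higher. With members not well above background at their bound the median was -0.26, and without the bound it was -0.40. Cxcl12, the attractant of Cxcr4-bearing cells, read 6.52 and 6.8 with EGFP and 2.37 and 2.36 with W20 and fell by 1.49 ± 0.0336 (2.81-fold). Cxcl5, a neutrophil attractant, read 0.994 and 1.02 with EGFP and 0.34 and 0.305 with W20 and fell by 1.65 ± 0.0919 (3.13-fold). Csf2 (GM-CSF), a growth factor of myeloid cells, went up with 0.068 and 0.0577 with EGFP and 0.191 and 0.187 with W20, and it rose by 1.59 ± 0.128 (3.02-fold). In the complement list 7 of 10 tested genes were called lower and 0 higher. Nfkbie, an inhibitor of NF-kappaB that the factor itself induces, read 3.24 and 3.4 with EGFP and 1.61 and 1.58 with W20 and fell by 1.06 ± 0.0472. Adjusted p was 3.37e-05 to 0.000239 (limma).

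Genes of ribosome assembly and tRNA charging were mostly higher, by small amounts, and those of the cytosolic ribosome itself were not: 14 of 46 genes whose names start with Rpl and 13 of 43 with Rps were called higher, with medians of 0.09 and 0.08. Of 48 ribosome biogenesis genes tested, 44 were called higher and none lower (33.0% and 24.4% of all genes), with a median of 0.39 against 0.04. Only 6 passed 1.5-fold. Nolc1, a nucleolar chaperone, read 3.22 and 3.06 with EGFP and 4.77 and 4.87 with W20 and rose by 0.62 ± 0.0377 at its brighter probe, while its other probe differed by 0.03. Rrp1b, a nucleolar rRNA processing factor, read 1.18 and 1.14 with EGFP and 1.78 and 1.82 with W20 and rose by 0.63 ± 0.0407. Ncl (nucleolin) read 77.3 and 73.6 with EGFP and 95.2 and 96.1 with W20 and rose by 0.34 ± 0.0424, and Npm1 (nucleophosmin) read 155 and 155 with EGFP and 164 and 174 with W20 and was not called (adjusted p = 0.0556), although without W20 array 1 its difference of 0.17 was called. Of 20 aminoacyl-tRNA synthetases, which load tRNAs with amino acids, 17 were called higher and none lower, and Cars read 9.91 and 9.18 with EGFP and 14.8 and 14.6 with W20 and rose by 0.62 ± 0.0449. Of 39 initiation and elongation factors, 25 were called higher and 2 lower, against 16 and 4 under quantile scaling and 13 and 1 under spike-in scaling. Eif4ebp1, which holds back cap-dependent initiation and is a target of ATF4, read 51.9 and 46.9 with EGFP and 73.9 and 76.8 with W20 and rose by 0.61 ± 0.0566. Adjusted p for the called genes was 0.000109 to 0.00103 (limma).

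The amino acid response, which the transcription factor ATF4 drives when amino acids run short, was higher. Of 25 genes of amino acid synthesis and transport, 24 were called higher and none lower, with a median of 0.44, and 4 passed 1.5-fold. Chac1, which degrades glutathione, read 12.5 and 10.9 with EGFP and 25.8 and 24 with W20 and rose by 1.09 ± 0.0954 (2.13-fold). Mthfd2, a mitochondrial folate enzyme, read 7.22 and 6.37 with EGFP and 12.5 and 13 with W20 and rose by 0.91 ± 0.0741 (1.88-fold). Psph, the last enzyme of serine synthesis, read 13 and 11.7 with EGFP and 20.8 and 20.5 with W20 and rose by 0.75 ± 0.0589. The W20 arrays were above the EGFP arrays in each case, as for every gene called higher. Of 14 regulators, 10 were called higher and 1 lower. Nupr1, a small stress-induced chromatin protein, read 20.3 and 18.1 with EGFP and 33.8 and 34.1 with W20 and rose by 0.82 ± 0.0682. Ddit3 (CHOP), a factor that ATF4 induces, read 2.39 and 2.21 with EGFP and 3.51 and 3.13 with W20 and rose by 0.53 ± 0.0637. Adjusted p was 0.000227 to 0.000948 (limma).

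ATF4 and its partners bind composite elements with the core TGATGNAA. The 250 bases before the start are shown for a pair of genes that rose, with the match in capitals on whichever strand it lies (RefSeq, GRCm38.p6). The Chac1 sequence lies at chr2:119350992-119351241 on the plus strand with the match beginning 193 bases before the start, and the Nupr1 sequence lies at chr7:126625471-126625720, printed from the minus strand, with the match beginning 110 bases before the start.
Chac1: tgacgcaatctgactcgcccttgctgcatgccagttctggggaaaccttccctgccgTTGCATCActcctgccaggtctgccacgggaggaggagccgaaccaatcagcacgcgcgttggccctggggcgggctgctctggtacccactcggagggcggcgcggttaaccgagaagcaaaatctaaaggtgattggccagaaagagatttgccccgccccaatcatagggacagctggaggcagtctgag
Nupr1: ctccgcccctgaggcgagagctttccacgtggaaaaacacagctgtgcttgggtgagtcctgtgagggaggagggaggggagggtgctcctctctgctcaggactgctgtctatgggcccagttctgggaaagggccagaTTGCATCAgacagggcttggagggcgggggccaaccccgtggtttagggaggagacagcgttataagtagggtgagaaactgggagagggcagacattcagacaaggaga
The core was found in the windows of 2.74% of tested genes and 4.51% of all genes. It was found in 9 of 33 amino acid response genes with a window (Trib3, Atf3, Nupr1, Asns, Got1, Chac1, Slc7a11, Slc1a4 and Vldlr), all of them called higher. It was found in 5 of 13 tRNA synthetase genes (Aars, Gars, Iars, Tars and Yars), also all called higher. Most tested members of these lists were called higher: 17 of 20 synthetases, 24 of 25 synthesis and transport genes and 10 of 14 regulators. The counts therefore do not set genes with the core apart. Over all genes 33.0% were called higher. The call on Asns (0.36) was lost without EGFP array 2 (0.29), W20 array 1 (0.35) or W20 array 2 (0.38).

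**Figure D4:**
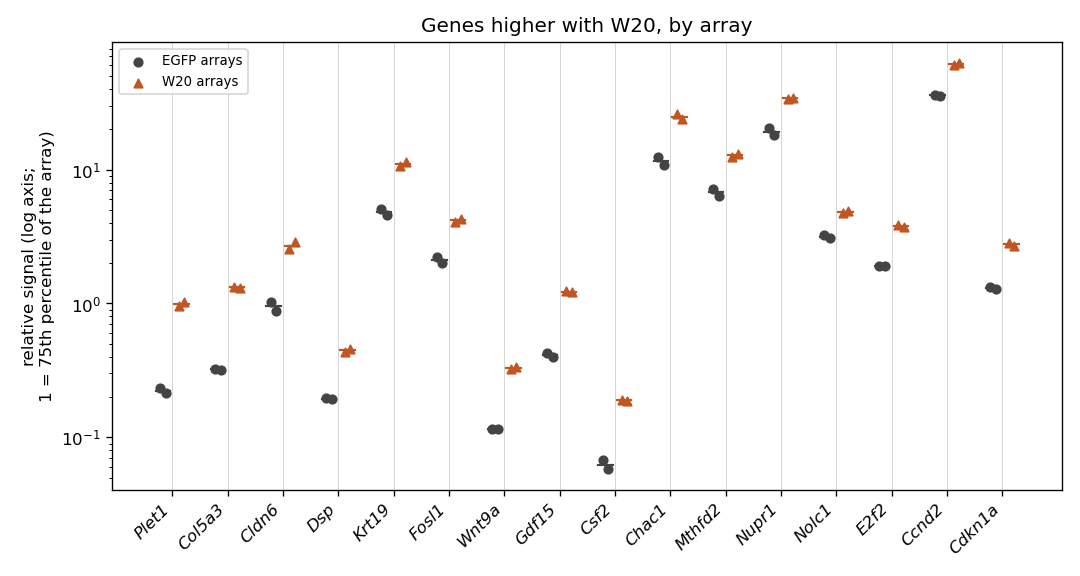
Relative signal (log axis, 1 is the 75th percentile of the array) of 16 genes that rose with W20, by array: 2 EGFP arrays (circles) and 2 W20 arrays (triangles), with a short line at each group's mean of log values. In each gene both W20 points lie above both EGFP points, as in every gene called higher, with smaller gaps for Nolc1 and Ccnd2 than for Gdf15 and Csf2.

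Protein turnover and mitochondrial import rose on the same small scale. Of 31 proteasome genes, 27 were called higher and none lower, with a median of 0.27 and none past 1.5-fold, and under spike-in scaling 17 were called higher. Psmd1, a base subunit of the regulatory particle, read 8.11 and 8.06 with EGFP and 11.2 and 11.2 with W20 and rose by 0.47 ± 0.0338. Of 36 mitochondrial biogenesis and import genes, 21 were called higher and none lower. Timm8a1, a chaperone of the intermembrane space, read 8.57 and 7.93 with EGFP and 12.8 and 13 with W20 and rose by 0.64 ± 0.0593. Cycs (cytochrome c), the electron carrier that also triggers caspases, read 27.4 and 24.6 with EGFP and 43.3 and 45.9 with W20 and rose by 0.78 ± 0.075. Complex I subunits did not share the rise: 27 of 37 were not called and their median, 0.04, equalled that of all genes. Their direction is not settled, since under quantile scaling 16 were called lower and 2 higher. Lysosomal genes had 16 of 48 called lower and 11 higher, and autophagy genes 10 and 8 of 33, with medians of -0.06 and 0.00. Neither direction is firm: under median scaling the lysosomal counts were 10 lower and 9 higher, and the autophagy counts 7 lower and 8 higher. Adjusted p for the named genes was 0.000168 to 0.000424 (limma).

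Genes of the cell cycle were higher, mostly by less than 1.5-fold. Of 55 DNA replication genes, 45 were called higher and none lower, and none passed 1.5-fold. Tk1, the thymidine kinase of S phase, rose by 0.50 ± 0.0341. Of 72 mitosis genes, 50 were called higher and 2 lower. Spike-in scaling called fewer of these lists higher, with 29 DNA replication, 24 mitosis and 14 DNA repair genes. Mybl2 (B-Myb), which drives late cycle genes, read 2.4 and 2.26 with EGFP and 3.77 and 3.88 with W20 and rose by 0.72 ± 0.0433. Of 41 DNA repair genes, 29 were called higher and none lower. Larger steps were found among 26 G1 regulators, where 6 members passed 1.5-fold upward and none downward. E2f2, an activator of S-phase genes, read 1.92 and 1.92 with EGFP and 3.83 and 3.75 with W20 and rose by 0.98 ± 0.0287 (1.98-fold). Ccnd2 (cyclin D2) read 36.2 and 35.4 with EGFP and 60.9 and 62.8 with W20 and rose by 0.79 ± 0.0317. Cdkn1a (p21), an inhibitor of cyclin-dependent kinases and a p53 target, rose with these activators, reading 1.32 and 1.28 with EGFP and 2.83 and 2.69 with W20, and it rose by 1.09 ± 0.0394 (2.12-fold). Adjusted p was 3.37e-05 to 0.000146 (limma).

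Targets of p53 moved in both directions. Of 26 tested, 16 were called higher, 6 by at least 1.5-fold, and 5 lower. Perp, a desmosome protein linked to cell death, read 0.392 and 0.4 with EGFP and 0.851 and 0.744 with W20 and rose by 1.01 ± 0.0898 (2.01-fold). Gadd45g, a growth arrest gene, rose by 0.82 ± 0.0428. Fas, a death receptor, fell, reading 0.267 and 0.308 with EGFP and 0.121 and 0.132 with W20, and it fell by 1.18 ± 0.0809 (2.27-fold). Genes of the BCL2 family and caspases were divided, 8 higher and 9 lower of 24, and 8 and 7 under median scaling. Adjusted p was 7.28e-05 to 0.000334 (limma).

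Enzymes of redox and lipid metabolism showed no common direction. Of 48 glutathione and NRF2 target genes, 19 were called higher and 11 lower. Gsta1, an alpha-class glutathione transferase, read 0.0385 and 0.0361 with EGFP and 0.103 and 0.122 with W20 and rose by 1.59 ± 0.0985 (3-fold), while Gstm7, a mu-class transferase, read 0.127 and 0.127 with EGFP and 0.059 and 0.0561 with W20 and fell by 1.14 ± 0.0803 (2.21-fold). Both belong to families of close copies, so cross-hybridisation of related transcripts cannot be separated here. Gsr, which regenerates reduced glutathione, read 2.35 and 2.03 with EGFP and 3.66 and 3.82 with W20 and rose by 0.77 ± 0.0758. Nqo1, a standard NRF2 target, read 2.65 and 2.72 with EGFP and 2.9 and 3.01 with W20 and was not called (adjusted p = 0.136). Cyp7b1, an oxysterol hydroxylase, read 0.113 and 0.122 with EGFP and 0.0475 and 0.0508 with W20 and fell by 1.26 ± 0.0616 (2.39-fold). Lpl, the lipase of lipoproteins, read 0.199 and 0.2 with EGFP and 0.401 and 0.432 with W20 and rose by 1.06 ± 0.0611 (2.08-fold). In cholesterol synthesis 13 of 26 genes were called higher and 4 lower, none past 1.5-fold, and 7 were higher under spike-in scaling. By limma, the called genes had adjusted p of 6.21e-05 to 0.000452.

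Imprinted genes, which are expressed from 1 parental copy and often control fetal growth, were mostly lower. Of 23 tested, 12 were called lower, 6 by at least 1.5-fold, and 4 higher. Mest, a paternally expressed gene of mesoderm, read 28.9 and 31.2 with EGFP and 7.41 and 7.33 with W20 and fell by 2.03 ± 0.0496 (4.07-fold). Magel2, from the Prader-Willi region, read 0.744 and 0.78 with EGFP and 0.344 and 0.357 with W20 and fell by 1.12 ± 0.0537. Phlda2, a maternally expressed gene that limits placental growth, rose instead, reading 0.0517 and 0.0474 with EGFP and 0.113 and 0.123 with W20, and it rose by 1.25 ± 0.0658 (2.38-fold). Nuclear receptors were lower in 15 and higher in 6 of 31 genes, and Rarb, a retinoic acid receptor that retinoic acid induces, read 1.13 and 1.17 with EGFP and 0.664 and 0.674 with W20 and fell by 0.78 ± 0.034. Among the Klf, Myc and POU factors Klf9, which glucocorticoids induce, read 0.202 and 0.183 with EGFP and 0.459 and 0.508 with W20 and rose by 1.33 ± 0.0708 (2.51-fold), and Pou3f1, a POU factor of neural cells, fell by 0.91 ± 0.0357. Adjusted p was 3.37e-05 to 7.53e-05 (limma).

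Chromatin and RNA processing lists changed little. Of 29 Polycomb genes, 8 were called lower and 4 higher, and of 51 histone modifiers, 19 and 9, with none past 1.5-fold in either list. The Polycomb genes called lower were 4 under median and 3 under spike-in scaling. Of 29 SWI/SNF and CHD remodellers, 8 were called lower and 8 higher, with 2 at least 1.5-fold lower and 0 higher. Of 17 DNA methylation genes, 1 was at least 1.5-fold higher and 1 lower. The nucleosome remodeller Smarca1 (SNF2L) read 0.842 and 0.952 with EGFP and 0.394 and 0.391 with W20. It fell by 1.19 ± 0.0663 (2.28-fold, adjusted p = 8.57e-05, limma). Of 38 splicing factors, 20 were called higher and 3 lower, with a median of 0.11. The counts were 11 and 7 under quantile scaling and 9 and 0 under spike-in scaling. The 13 reference genes had 7 called higher (4 under spike-in scaling) and none lower, with a median of 0.14.

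Gene families were also taken by symbol. They come from the same 4 arrays and share genes with the lists, such as Col8a2, Adamts5 and Psmd1, so they are not separate support. Among 123 families of at least 12 tested genes, the lowest medians were those of Adamts (-0.70) and Col (-0.50) and the highest those of Psmd (0.30), the lid and base of the proteasome, and Nup (0.24), the nuclear pore. Of the Nup genes 17 of 20 were called higher and none lower. The Lsm proteins, which bind U6 and decaying mRNAs, had 11 of 13 called higher and none lower, and mitochondrial ribosomal proteins (Mrpl) had 33 of 49 higher and 2 lower. Intraflagellar transport genes (Ift), which build the primary cilium, had 9 of 14 called lower and none higher, with a median of -0.19 and none past 1.5-fold. Medians by chromosome ran from -0.02 to 0.07.

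**Figure D5:**
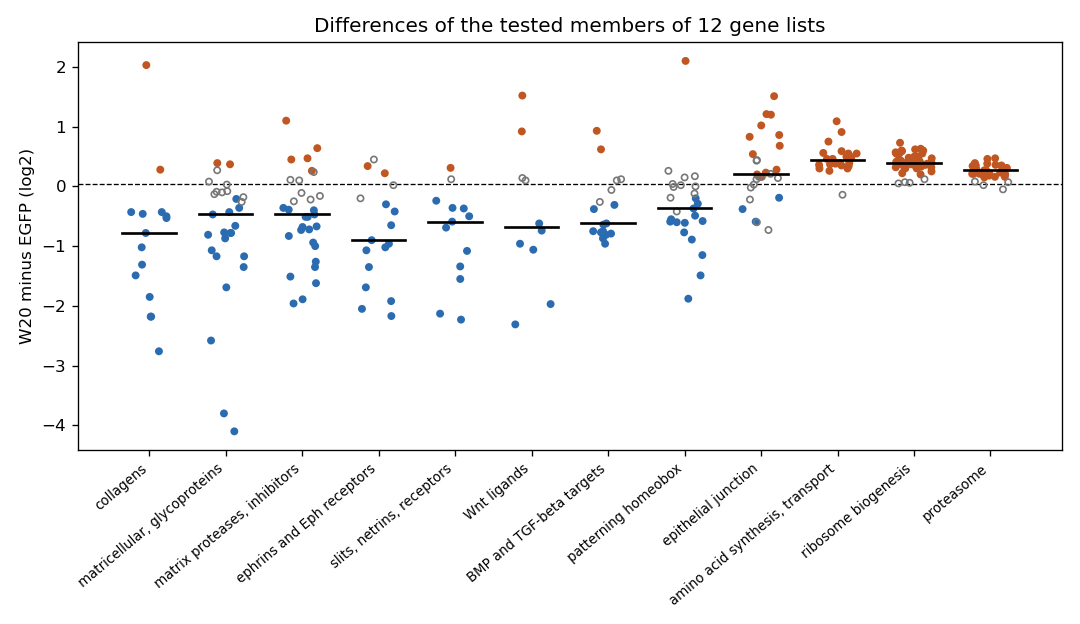
Difference between W20 and EGFP NPCs (log2) of every tested member of 12 gene lists, 1 point per gene, filled where the gene was called and open where it was not, with a bar at each list's median. The dashed line is the median of all genes, 0.04; matrix, guidance and Wnt ligand lists spread far below it, and amino acid, ribosome biogenesis and proteasome lists lie in a narrow band above it.

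The same contrast at 72 h of reprogramming, which has its own EGFP and W20 arrays on another slide, was set beside these values. The labels give no EGF concentration for the 72 h arrays, so time, medium and slide cannot be told apart between the stages. Of the 1381 genes called at least 1.5-fold in NPCs, 1090 (78.9%) had the same sign at 72 h, against 70.9% of all genes. Of them 856 were also called with the same sign at 72 h and 141 with the opposite sign, and 890 differed between the stages with an adjusted p of the interaction under 0.05 (limma). The shares of all genes called at 72 h, or by the interaction, are not given here. The counts at 72 h therefore do not set a list apart from all genes. The ephrin list had a median of -0.54 at 72 h, with 16 of 17 called lower and 0 higher. Wnt ligands had a median of 0.06 there, with 4 lower and 1 higher of 10. Patterning homeobox factors had a median of -0.04, with 8 lower and 6 higher of 25. Of 48 ribosome biogenesis genes, 45 were called higher at 72 h and 44 in NPCs. Amino acid synthesis and transport genes had a larger median at 72 h, 0.84, with all 25 of 25 called higher. For single genes, the difference of Lama4 was 0.03 ± 0.123 at 72 h (adjusted p = 0.858), that of Vcam1 was 0.13 ± 0.0572 (adjusted p = 0.106) and that of Tgfb2 was 0.17 ± 0.0805 (adjusted p = 0.116), and none of these was called there. Their interaction adjusted p was 0.000303, 0.000163 and 0.000177 (limma), so the difference between the stages was itself called. Egr1 was -0.48 ± 0.0856 and Egr2 was -0.47 ± 0.0761 at 72 h, both called lower there by less than in NPCs.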

How the data were processed

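Total RNA was labelled with Cy3 and hybridised to Agilent whole mouse genome 4x44K arrays, per the labels' protocols. The deposited intensity of each spot is the processed signal of Agilent Feature Extraction 10.7.3.1, already background-corrected, per the file headers. The authors' deposited value table holds log2 values whose scale, centring and direction are not stated; its 4 NPC columns (medians -3.79, -3.73, -3.82 and -3.79) equalled the log2 processed signal of their own array after 1 shift per array, within 0.01 for 100% of probes, which settles scale and direction and leaves only the centring step unnamed. That table served as an alternative. Its 4 columns under the 72 h labels were not used: each equalled, within 0.01 for 100% of probes, the mean log2 value of a pair of arrays, namely EGFP NPC, EGFP 72 h, W20 NPC and W20 72 h in label order. The 72 h values here come from the scanner files, each taken at its label, and those means pair the 72 h scanner files as the labels do.

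From the scanner files, control spots and outlier flags were left out, spots of a probe were averaged, and log2 signal minus each array's 75th percentile was taken. Tested genes had a probe well above background on both arrays of 1 NPC group or both, using its brightest probe over the 4 NPC arrays. Of these genes 4935 had several probes past the filter, and in 172 the called probes had both signs. limma 3.58.1 (R 4.3.3; lmFit and eBayes) was fitted over all 8 arrays with 4 group means, so the spread is shared with the 72 h arrays, and p-values were adjusted by Benjamini-Hochberg over 13146 genes. The fit had 4 residual and 1.99 prior degrees of freedom, and the median standard error was 0.048. For 3 genes 1 NPC array lacked a value. With 2 arrays a group, their number limits the precision. The fit was tested on simulated data. Of 41174 probes 13590 carry no symbol and were not named. Some genes are not reported here. Symbols and promoter sequences come from RefSeq (GRCm38.p6), and 2644 of 2651 list genes matched. Scripts ran in Python 3.11.15.

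The members, the 104 gene lists and the tests were chosen with earlier results of these data known. Genes were named by a rule: the 12 largest called differences in each direction, up to 5 called members of each list, and up to 3 members of a symbol family. These had called probes of 1 sign and no overlap between the groups. Each list's defining members were also named by the rule, whatever their values. Adam8, Plaur, Srf and some genes with a promoter match (15 genes in all) fall outside it and were chosen after their values were seen. The rule gave 854 genes and the text names 191 in all, so most genes of the rule are not shown. The choice among them follows no stated rule. The alternatives were 4 other scalings or background corrections, 2 other filters, probe means, the NPC arrays alone, a replicate block, the deposited table, an intensity trend and leaving out each array. The normexp background correction was planned on mean signals, but the files used here have median signals, which were taken instead.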

Additional observations from a re-analysis of the deposited data

Results flagged for a closer look

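15 of the named genes were called in NPCs and called with the opposite sign at 72 h, and the difference between the stages had an adjusted p under 0.05 for each (limma interaction, 0.00169 or less). Of the 174 called genes named, 134 had an interaction adjusted p under 0.05 (limma), and the share over all genes is not given here. Some junction and protease genes were higher with W20 in NPCs and lower at 72 h, but others of the junction list were not, such as Dsp (0.80 at 72 h). Cldn6 was -0.95 there against 1.51 in NPCs, Krt8 was -0.41 against 0.83, Adam8 was -0.51 against 1.10, and Plaur was -0.43 against 0.64. Csf2 was -0.76 against 1.59, although neither 72 h group was well above background for it, Acsbg1 was -0.27 against 1.53, Lgals3 was -0.31 against 0.80, and the growth regulator Myc was -1.52 against 0.50. In the other direction, Fhl1 was 0.64 at 72 h against -2.20 in NPCs, Spry4 was 0.50 against -1.39, Adm was 0.30 against -1.32, and Cyp7b1 was 0.42 against -1.26. Sox2 was 0.14 against -0.71, and Zfp42 was 0.12 against -0.54. Prom1, not well above background in W20 NPCs, was 0.84 at 72 h, and it was at least 1.73-fold lower in NPCs. The cause of these turns was not tested.

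Probes without a symbol were outside the gene tests. Of 5117 that passed the filter, 344 were called at least 1.5-fold, 123 higher and 221 lower (limma).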

How the results depend on the processing

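Of the 174 called genes named, 171 were called in the same direction under every alternative in which they were tested. Most of them were picked for large called differences on the same arrays, so this count does not describe called genes at large. The call on Asns was lost under quantile scaling (0.30) and without EGFP array 2, W20 array 1 or W20 array 2. The call on Nes (0.19) was lost under quantile (0.11) and spike-in scaling (0.17) and without EGFP array 1 (0.15) or W20 array 2 (0.17). The call on Esrrb (-0.60) was lost under quantile scaling (-0.59), without a filter on dim probes (-0.60) and without any 1 of the 4 arrays (-0.56 to -0.64). Acta2 reversed to -1.27 when its probes were averaged. Spike-in scaling gave 2466 genes higher instead of 4333. Normexp gave 244 genes at least 1.5-fold higher and 533 lower instead of 478 and 903; it adds an offset of 50, which compresses low signals. Leaving out 1 array gave 3196 to 3636 genes higher, 2542 to 2665 lower, 426 to 523 at least 1.5-fold higher and 813 to 931 lower. The share of calls that were higher was 57.5%, and 49.5% to 63.7% under the other scalings, while the median of all genes stayed between 0.0029 and 0.0835. Under quantile scaling 2 DNA replication, 1 DNA repair, 1 mitochondrial import and 1 proteasome gene were called lower. Same-numbered arrays did not deviate together (correlation -0.09 in NPCs and 0.07 at 72 h over 12656 genes well above background on all 4 NPC arrays), so the numbers do not pair the arrays; with the replicate number as a block, 4332 genes were higher and 3209 lower, 477 and 895 of them by at least 1.5-fold, and among named genes the call on Esrrb alone was lost (-0.60, adjusted p = 0.0504). Of the differences called at least 1.5-fold, 39 higher and 126 lower are of probes not well above background in 1 group.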

Other observations

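Secreted and calcium-binding proteins outside the matrix moved in both directions. Of 39 serpins, S100 proteins, annexins, cystatins and galectins tested, 13 were called higher and 17 lower. Lgals3 (galectin 3) read 23.8 and 20.3 with EGFP and 37.8 and 38.7 with W20 and rose by 0.80 ± 0.0744. Anxa8, an annexin of epithelia, read 1.2 and 1.29 with EGFP and 2.45 and 2.15 with W20 and rose by 0.88 ± 0.0682. Serpinf1 (PEDF), an inhibitor of vessel growth, read 26.1 and 25.4 with EGFP and 11.9 and 11.1 with W20 and fell by 1.17 ± 0.0413. The endothelin receptor Ednra read 0.868 and 1.01 with EGFP and 0.313 and 0.285 with W20 and fell by 1.65 ± 0.134 (3.14-fold). Among hypoxia targets Stc2, a stanniocalcin, read 0.291 and 0.252 with EGFP and 0.635 and 0.626 with W20 and rose by 1.22 ± 0.0717 (2.33-fold), while Adm (adrenomedullin) read 0.19 and 0.186 with EGFP and 0.0743 and 0.0766 with W20 and fell by 1.32 ± 0.038 (2.5-fold). For these genes limma's adjusted p ran from 3.37e-05 to 0.000382.

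Single genes of other lists were also far from their list's middle. In the Hippo pathway Tead4, a DNA-binding partner of Yap, read 0.53 and 0.491 with EGFP and 0.945 and 0.971 with W20 and rose by 0.91 ± 0.0434, against a list median of -0.13. Among lysosomal proteases Ctsh read 1.29 and 1.24 with EGFP and 2.37 and 2.48 with W20 and rose by 0.94 ± 0.0415, while Ctsf read 0.642 and 0.667 with EGFP and 0.378 and 0.31 with W20 and fell by 0.94 ± 0.0914. Apobec1, an RNA-editing deaminase, read 1.16 and 1.1 with EGFP and 2.25 and 2.27 with W20 and rose by 1.00 ± 0.0419 (2-fold). Adjusted p for these was 4.66e-05 to 0.000447 (limma).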
